A study of Mus musculus with 6 samples.

Results

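The nuclear genes for the subunits of respiratory complexes III, IV and V and for cytochrome c were followed in the kidneys of nanoparticle-treated mice. Members were the nuclear protein-coding genes whose symbol began with Uqcr, Cox4 to Cox8 or Atp5, together with Cyc1 and Cycs. The rule found 46 of the 57180 gene IDs in the tables, 9 for complex III, 18 each for complexes IV and V, and Cycs. Of these, 40 had enough reads to be tested, and the 6 left out were Cox4i2, Cox6a2, Cox7b2, Cox8b, Cox8c and an additional Atp5o entry (ENSMUSG00000116933) with 0 counts in every library.

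Complex III takes electrons from ubiquinol and hands them to cytochrome c, a small mobile protein, and complex IV passes them from cytochrome c to oxygen. Both pump protons across the inner mitochondrial membrane, and complex V, the ATP synthase, uses their return flow to turn a ring of c subunits and make ATP. The mitochondrial genome encodes a few core subunits and the nucleus all the others. Kidney tubules, above all the proximal tubule, spend much of this ATP on salt and solute transport and are rich in mitochondria.

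The NP200 group held 3 wild-type male C57BL/6J mice given cationic polystyrene nanoparticles by mouth at 200 mg/kg once daily for 6 weeks. The CON group held 3 wild-type male C57BL/6J mice given deionized water, 0 mg/kg, on the same schedule. All mice were 7 weeks old when obtained, and 1 kidney RNA library per mouse was sequenced, so replicates were separate animals. The labels gave no batch or date.

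Libraries held 19408534 to 23793640 expected counts in NP200 kidneys and 23420454 to 26292760 in CON kidneys, and the members took 1.24% to 1.29% of them in NP200 and 1.26% to 1.33% in CON. All 12 proximal tubule markers were detected, and their summed level was 37067, 42387 and 43991 CPM (counts scaled to library size with the trimmed mean of M values) in NP200 kidneys 1, 2 and 3, against 44967, 45532 and 42808 CPM in CON kidneys 1, 2 and 3. A single gene, Kap, made up most of this sum in every kidney, with 20403 CPM in NP200 kidney 1. Below, 3 values in a row are always kidneys 1, 2 and 3 of the named group. Fat cell genes stood high in NP200 kidney 1 and, less so, in CON kidney 3: Adipoq, an adipocyte hormone, had 444, 0 and 2 counts in NP200 kidneys and 0, 1 and 130 in CON kidneys. Medians and calls are given below with and without these 2 libraries, and single genes where they differ most.

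No member passed an adjusted p of 0.05 in edgeR's quasi-likelihood test, and the adjusted p of the 40 members ran between 0.637 and 0.991. Over the whole table of 18092 genes the test also called 0%. The log2 fold change, NP200 over CON, was negative in 37 of 40 members, where 48.1% of all genes tested were negative. The median was −0.10 over the members, against 0.0067 over all genes. It was −0.11 in complex III with 9 of 9 negative, −0.085 in complex IV with 12 of 13, and −0.10 in complex V with 15 of 17. The positive members, Cox5b, Atp5g2 and Atp5s, lay between 0.0067 and 0.030, and each of them turned negative in at least 2 of the alternative analyses. Counts of genes in these lists are a description, since the genes were chosen with earlier results known and the same libraries were low in most of them. In whole kidney RNA, fewer cells of a type and less RNA per cell cannot be told apart.

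At an unadjusted p of 0.05, 2 members were lower (Uqcrq and Atp5g3) and 0 higher, where 3.5% of all genes were lower and 3.69% higher, or 7.19% in either direction. A count of 2 among 40 is close to that background. DESeq2 called 0 of the members and 0.44% of the genes for which it gave an adjusted p, with a lowest adjusted p of 0.583 among members. In 5 members (Cyc1, Uqcrfs1, Cox6a1, Atp5f1 and Atp5g3) every NP200 kidney lay below every CON kidney, an order found in 6.32% of all genes. No member showed the opposite order, which 6.54% of all genes did. Most members were abundant, 36 of them with at least 100 CPM. Of the 1581 nuclear protein-coding genes at that level, 179 lay lower without overlap and only 44 higher. For a typical member the 95% interval spanned 0.161 log2 units on each side of the estimate, and in 39 of 40 it lay within a 1.5-fold difference either way, the exception being the scarce Cox6b2.

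**Figure D1:**
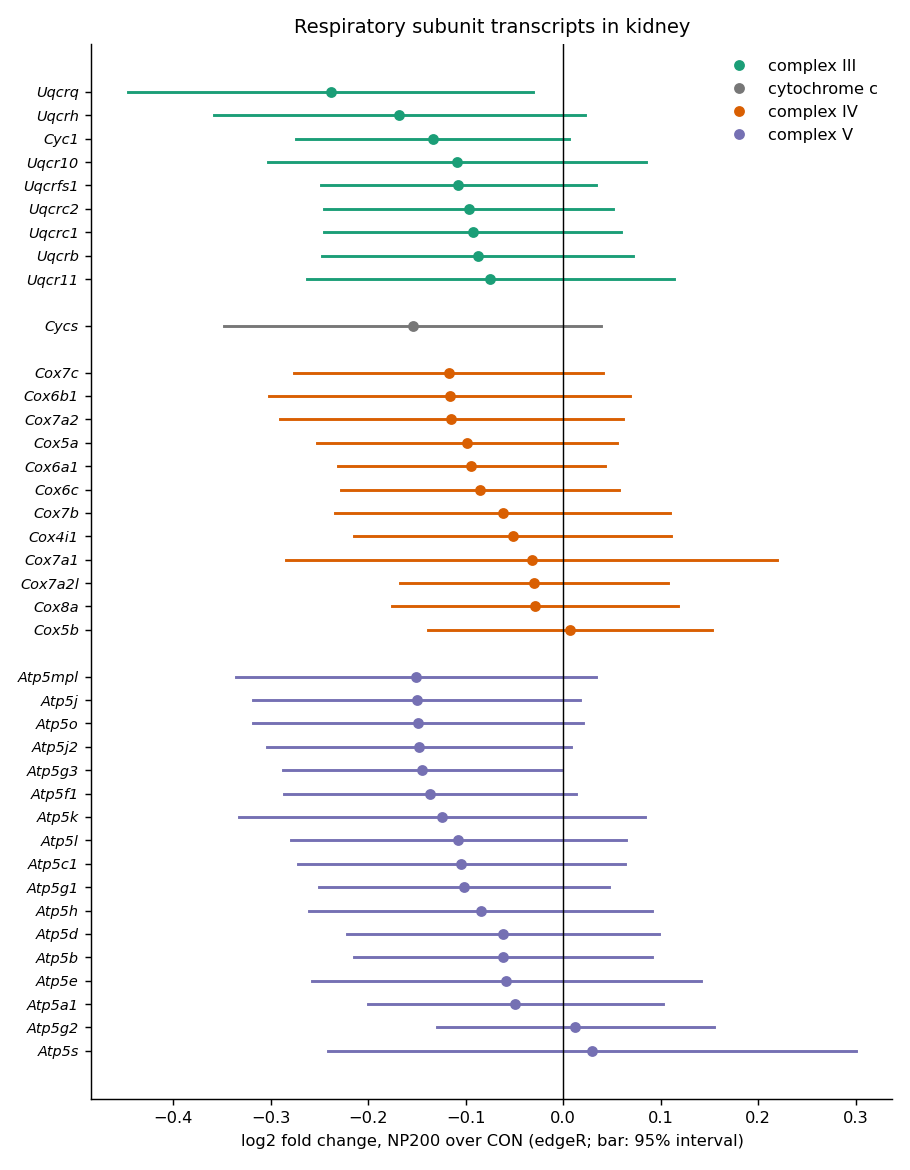
Log2 fold change, NP200 over CON, of 39 tested members (points) with 95% intervals from edgeR (bars), grouped by complex and sorted; Cox6b2, whose interval is far wider, is left out. Most points lie a little left of 0, the interval of all but Uqcrq and Atp5g3 crosses 0, and the points right of 0 are Cox5b, Atp5g2 and Atp5s.

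The offset was uneven across mice. NP200 kidney 1 was the lowest of all 6 libraries in 33 of 40 members, or 82.5%, against 19.4% of all genes tested. That held for 9 of 9 complex III members, 9 of 13 in complex IV and 14 of 17 in complex V. NP200 kidney 1 lay below all CON kidneys in 34 members, NP200 kidney 2 in 17 and NP200 kidney 3 in 9. Among CON kidneys the third was the lowest in 37 of 40 members, and in 34 it lay below the highest NP200 kidney. All NP200 kidneys lay below both CON 1 and CON 2 in 29 members, an order that leaves out CON 3. Apart from the lowest of all 6 libraries, these orders were counted in the members only, with no share over all genes. A score, the mean log2 CPM of the members minus its CON mean, was −0.165, −0.102 and −0.044 in NP200 kidneys and 0.056, 0.037 and −0.093 in CON kidneys. The groups therefore overlapped at CON kidney 3, which lay below NP200 kidney 3.

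The libraries at the low end of each group, NP200 1 and CON 3, were also the ones with fat cell transcripts. Without NP200 kidney 1 the members' median was −0.056, with 38 of 41 tested members negative and 1 at an unadjusted p under 0.05. It was then −0.066 in complex III, −0.051 in complex IV and −0.055 in complex V. Of the 40 members, 36 lay closer to 0 in that fit, and 8 (Uqcr11, Cox4i1, Cox5b, Cox7b, Cox8a, Atp5a1, Atp5d and Atp5e) lay within 0.01 of it. Without CON kidney 3 the median was −0.14, 40 of 41 tested members were negative (Cox4i2, tested in that fit, was at 0.46) and 12 had an unadjusted p under 0.05. With both left out the median was −0.095, 38 of 40 were negative and 8 had an unadjusted p under 0.05. No member passed the adjusted threshold of edgeR's test in any of these fits. Shares of all genes with an unadjusted p under 0.05 or a negative value were not counted in these fits. The members' counts there have no background. Without CON kidney 3, 71 of 80 cytosolic ribosomal proteins were negative as well. Proximal tubule markers as a score stood at −0.171, 0.030 and 0.027 in NP200 kidneys and 0.020, −0.031 and 0.010 in CON kidneys, low in NP200 kidney 1 but not in CON kidney 3. Among them Slc5a12 was higher in every NP200 kidney, at 394, 458 and 397 CPM against 373, 366 and 358 CPM in CON kidneys. Aqp1, Slc5a2 and Miox in NP200 kidney 1 were not below all CON kidneys either. Not all tubule markers singled out NP200 kidney 1. The 4 thick limb markers summed to 6590, 6689 and 5614 CPM in NP200 kidneys and 7224, 7687 and 6513 CPM in CON kidneys. Their sum was lowest in the third kidney of each group, though Egf among CON kidneys was lowest in CON 1. The 3 distal convoluted tubule markers summed to 533, 589 and 776 CPM in NP200 kidneys and 543, 538 and 738 CPM in CON kidneys. Further markers did set NP200 kidney 1 apart. Collecting duct principal cell markers, 4 of 4 detected, summed to 264, 164 and 139 CPM in NP200 kidneys and 158, 151 and 138 CPM in CON kidneys. Of these, Aqp2 (149 CPM) and Fxyd4 (27.9 CPM) were highest in NP200 kidney 1. Aqp3 was higher in NP200 kidney 2 (53.9 against 53.0 CPM), and Scnn1g in NP200 kidney 1 (34.5 CPM) lay below all CON kidneys. Urothelium markers, 5 of 5 detected, summed to 17.4, 2.50 and 2.86 CPM in NP200 kidneys and 5.46, 3.82 and 1.70 CPM in CON kidneys. Intercalated cell markers, 4 of 4 detected, summed to 100.5, 148 and 161 CPM in NP200 kidneys and 138, 144 and 149 CPM in CON kidneys. Slc4a1 among them was not lowest in NP200 kidney 1, at 22.6 CPM against 20.2 CPM in CON kidney 3. Erythrocyte markers, 5 of 5 detected, summed to 626, 488 and 533 CPM in NP200 kidneys and 822, 861 and 579 CPM in CON kidneys. All 5 of these were lower in NP200 at an unadjusted p under 0.05, with a lowest adjusted p of 0.432 in edgeR, and CON kidney 3 was the lowest CON kidney for them as for the members. The part of fat, tubule, urothelium or blood content in the members' order was not tested.

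**Figure D2:**
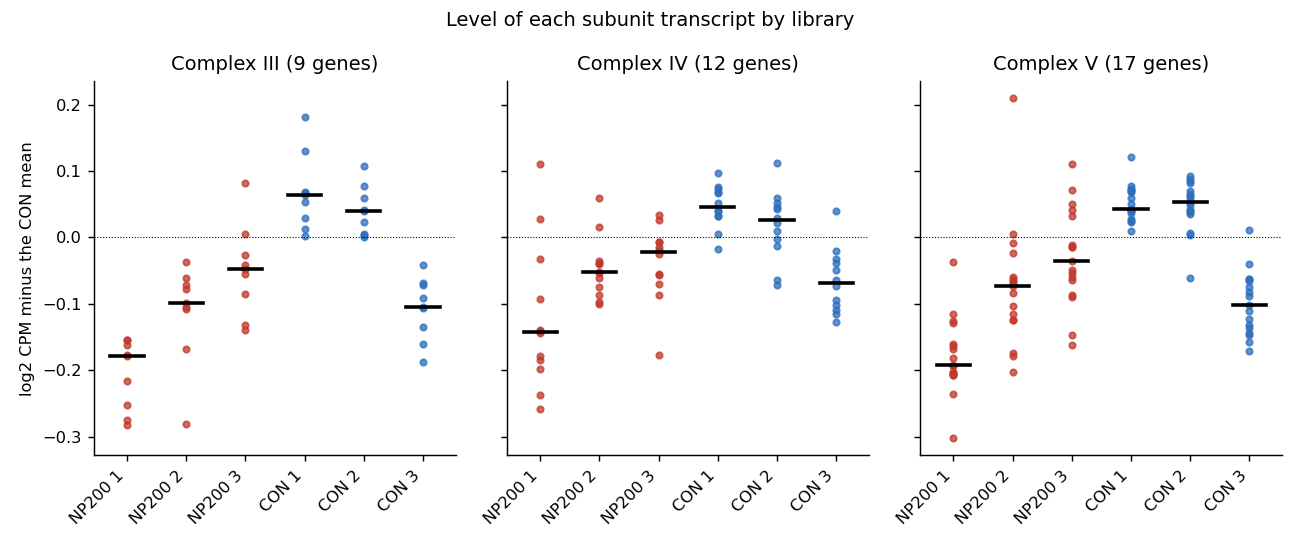
Log2 CPM of each subunit gene minus its CON mean, by library, for complexes III, IV (without Cox6b2) and V; each point is 1 gene and each black bar the median of its library. NP200 1 sits lowest in every panel, and CON 3 sits below the other CON kidneys and below NP200 3.

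All 9 complex III members had negative values, and Uqcrq had the lowest p among all members. Uqcrq (ENSMUSG00000044894), a small accessory subunit of complex III, had 59.8, 59.9 and 66.4 CPM in NP200 kidneys and 82.4, 73.0 and 63.9 CPM in CON kidneys. Both NP200 1 and NP200 2 lay below all CON kidneys, while NP200 3 lay above CON 3, so the groups overlapped. Its log2 fold change of −0.24 (SE 0.094, 95% interval −0.45 to −0.031) was the lowest after that of the scarce Cox6b2, with an unadjusted p of 0.0283 and an adjusted p of 0.637 in edgeR. Without CON kidney 1, the highest library, it was −0.14, and without CON kidney 3 it was −0.33.

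Cyc1 (ENSMUSG00000022551), cytochrome c1, which passes electrons to cytochrome c, had 131, 136 and 132 CPM in NP200 kidneys and 153, 146 and 139 CPM in CON kidneys. NP200 and CON kidneys did not overlap, and the spread within NP200 was narrow (133 ± 2.4 CPM in NP200 and 146 ± 6.9 CPM in CON, SD, n = 3 each). Its log2 fold change was −0.13 (SE 0.063), with an adjusted p of 0.702 in edgeR. Uqcrfs1, the Rieske iron-sulfur protein that takes the first electron from ubiquinol, had 244, 265 and 260.4 CPM in NP200 kidneys and 277, 284 and 268 CPM in CON kidneys. Again the groups did not overlap, at a log2 fold change of −0.11 (SE 0.064). Uqcrh, the hinge protein that helps cytochrome c1 meet cytochrome c, had 190.5, 205 and 222 CPM in NP200 kidneys and 239, 248 and 206 CPM in CON kidneys. Only NP200 1 and NP200 2 lay below all CON kidneys, and the log2 fold change was −0.17 (SE 0.086).

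The core proteins Uqcrc1 and Uqcrc2 form the matrix-facing base of the complex. Uqcrc1 had 310.3, 330.2 and 337 CPM in NP200 kidneys and 364, 353 and 326 CPM in CON kidneys. Uqcrc2 had 335, 346 and 366 CPM in NP200 kidneys and 377, 389 and 355 CPM in CON kidneys. Both overlapped at CON 3, with log2 fold changes of −0.093 and −0.097. Uqcr10 and Uqcr11, small subunits, had the highest levels per length in the complex, at 721.9 and 707.2 CPM per kb of effective length over all 6 kidneys, 6.01 times that of Cyc1 for Uqcr10. Uqcr10 had 151, 171 and 181 CPM in NP200 kidneys and 197, 181 and 164 CPM in CON kidneys, and Uqcr11 had 153, 166 and 188 CPM in NP200 kidneys and 185, 183 and 165 CPM in CON kidneys. In each of them NP200 3 lay above CON 3, and their log2 fold changes were −0.11 and −0.075. Uqcrb, which helps shape the quinone site, stood at −0.088 and completes the complex.

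Between complexes III and IV, Cycs, the somatic cytochrome c, had 369.6, 379 and 439 CPM in NP200 kidneys and 439, 478 and 404 CPM in CON kidneys. NP200 1 and NP200 2 were the lowest libraries and NP200 3 lay above CON 3, with a log2 fold change of −0.15 (SE 0.087, adjusted p 0.734 in edgeR). Its counts were not whole in all 6 libraries, as in 13 of the members, which RSEM can leave where reads fit several genes, so its level depends on how such reads were divided. The same limit holds for the others of these 13. They were Uqcrc1, Uqcrc2, Cox5a, Cox5b, Cox6c, Cox7a2l, Cox7c, Atp5f1, Atp5g1, Atp5g2, Atp5h and Atp5l.

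Complex IV had the smallest median offset of the 3 complexes, with scores of −0.113, −0.122 and −0.065 in NP200 kidneys and 0.059, 0.014 and −0.073 in CON kidneys. These scores include the scarce Cox6b2. Cox4i1 and Cox6c had the highest levels per length, 1013.0 and 1014.2 CPM per kb, which did not differ beyond their spread. Cox4i1, the common form of the largest nuclear subunit, had 489, 524 and 549 CPM in NP200 kidneys and 567, 549.9 and 502 CPM in CON kidneys. Cox6c, a small membrane subunit, had 304, 321 and 322 CPM in NP200 kidneys and 336, 349 and 320.1 CPM in CON kidneys. Both overlapped, at log2 fold changes of −0.052 and −0.085.

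Cox6a1, the common form of a subunit involved in regulation of the enzyme, had 181, 193 and 189 CPM in NP200 kidneys and 206, 202 and 194 CPM in CON kidneys. It was the only tested complex IV member without overlap between NP200 and CON, by a margin of 193.49 CPM in the highest NP200 kidney to 193.78 CPM in the lowest CON kidney. Its log2 fold change was −0.094 (SE 0.062, adjusted p 0.764 in edgeR). Cox7c, a small membrane subunit, had the lowest p of the complex, with 226, 239 and 244 CPM in NP200 kidneys and 253, 277 and 239.9 CPM in CON kidneys and a log2 fold change of −0.12 (SE 0.072). NP200 1 and NP200 2 lay below all CON kidneys and NP200 3 above CON 3.

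Cox6b1, which lies on the side of the enzyme where cytochrome c docks, had 241, 271 and 286 CPM in NP200 kidneys and 303, 298 and 264 CPM in CON kidneys. Cox7b had 234, 259 and 271 CPM in NP200 kidneys and 278, 273 and 246 CPM in CON kidneys. In both, NP200 1 alone lay below every CON kidney, and the log2 fold changes were −0.12 and −0.062. Cox5b, a zinc-binding subunit, had 233, 231 and 225 CPM in NP200 kidneys and 244, 219 and 223 CPM in CON kidneys, with CON 1 the highest and CON 2 the lowest library. Its log2 fold change of 0.0067 (SE 0.066) was the closest to 0 of all members, and its sign turned with small changes of processing. Cox5a, which Cox4i1 contacts at the start of assembly, was at −0.099.

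Several complex IV subunits exist in tissue-specific forms, whose levels are given side by side. In the Cox7a family Cox7a2, the common form, had 206, 226 and 241 CPM in NP200 kidneys and 254, 250.4 and 224 CPM in CON kidneys, and Cox7a1, the form of heart, skeletal muscle and brown fat, had 9.58, 8.56 and 7.85 CPM in NP200 kidneys and 9.08, 8.80 and 8.75 CPM in CON kidneys. Only NP200 1 of the Cox7a2 values lay below all CON kidneys, whereas for Cox7a1 NP200 1 was the highest and NP200 3 the lowest library. Cox7a1 made up 3.75% ± 0.66 of the counts of both genes in NP200 and 3.53% ± 0.20 in CON (SD, n = 3 each), and the groups overlapped (exact two-sided permutation test, p = 0.8, also 0.8 after Benjamini-Hochberg adjustment over 4 shares). Cox7a2l, which links complexes III and IV into supercomplexes, had 136, 135 and 138 CPM in NP200 kidneys and 144, 141 and 132 CPM in CON kidneys. C57BL/6 mice carry a shortened form of this protein, and gene counts do not tell the forms apart. The log2 fold change of Cox7a2l was −0.030 (SE 0.062), and it turned positive with library size scaling alone or with TPM, as did those of Cox7a1 and Cox8a. The median of all genes rose as well, to 0.051 with library size alone. With TPM the median of the nuclear protein-coding genes tested was 0.049 or 0.054, depending on the added constant. Cox7a2l, Cox7a1 and Cox8a stayed below these medians.

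The remaining tissue forms were scarce. Cox4i2, the lung form, had counts of 11, 12 and 6 in NP200 kidneys and 10, 5 and 2 in CON kidneys. Cox6a2, the heart and muscle form, had counts of 3, 6 and 7 in NP200 kidneys and 11, 10 and 13 in CON kidneys, and it had fewer counts in every NP200 kidney than in any CON kidney, below the filter for a test. Cox6b2, the testis form, had counts of 19, 3 and 9 in NP200 kidneys and 25, 17 and 15 in CON kidneys and a log2 fold change of −0.78 with a 95% interval of −1.89 to 0.33. Cox7b2 and Cox8c had 0 counts in every library, which allows up to 3 counts, or 0.117 to 0.156 CPM depending on the library, for counting error only. Of 9 striated muscle markers, Myh2 and Myh4 were at 0, and their summed level was 1.17 to 1.40 CPM in NP200 and 0.65 to 1.48 CPM in CON. Of the testis markers, Prm1, Prm2 and Tnp1 were at 0 in every library.

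The Cox8 pair differed from these. Cox8a, the common form, had 316, 351 and 324 CPM in NP200 kidneys and 346, 336 and 328 CPM in CON kidneys, with NP200 2 the highest and NP200 1 the lowest library and a log2 fold change of −0.029 (SE 0.066). Cox8b (ENSMUSG00000025488), the form of striated muscle and brown fat in mice, had counts of 77, 0 and 0 in NP200 kidneys and 0, 2 and 6 in CON kidneys. Nearly all of its counts lay in 1 mouse, NP200 1, where it made up 0.981% of Cox8a and Cox8b counts (exact binomial 95% interval 0.775% to 1.22%). Its other libraries reached at most 6 counts, and it fell below the filter. With no filter edgeR gave a log2 fold change of 3.20, an unadjusted p of 0.000367 and an adjusted p of 0.0543, which rest on that 1 kidney. Ucp1, the uncoupling protein of brown fat, had counts of 106, 0 and 0 in NP200 kidneys and 0, 5 and 10 in CON kidneys. Cidea, a lipid droplet protein of brown fat, had counts of 295, 0 and 1 in NP200 kidneys and 2, 0 and 9 in CON kidneys. Both were highest in NP200 1, as Cox8b was, and the summed white adipocyte markers, all 8 of them detected, were at 260.1, 36.0 and 32.3 CPM in NP200 kidneys and 43.2, 47.6 and 97.2 CPM in CON kidneys. Brown adipocyte markers, 5 of 5 detected, summed to 65.6, 69.1 and 69.2 CPM in NP200 kidneys and 58.5, 53.2 and 67.8 CPM in CON kidneys, most of it Ppara, which kidney itself expresses. Ppara was lowest in NP200 1, at 48.8 CPM. Otop1 had counts of 10, 0 and 0 in NP200 kidneys and 0, 0 and 2 in CON kidneys. Elovl3 did not follow, with counts of 3, 2 and 4 in NP200 kidneys and 13, 1 and 4 in CON kidneys. The part of fat in the Cox8b counts was not tested.

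**Figure D3:**
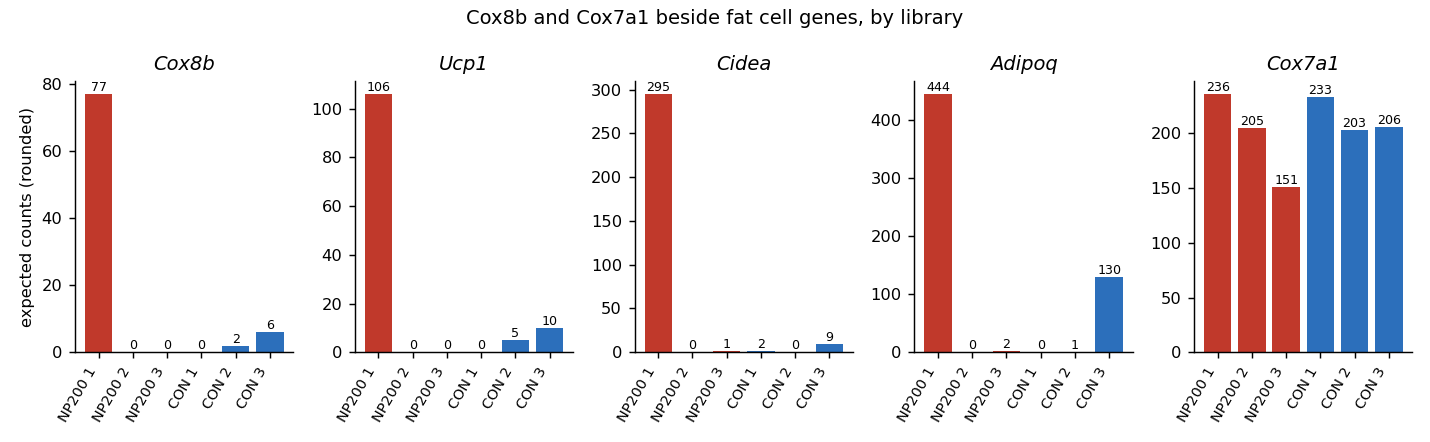
Rounded expected counts (bars, from 0, with the count printed above) of Cox8b, the fat cell genes Ucp1, Cidea and Adipoq, and Cox7a1 in each library. Cox8b, Ucp1, Cidea and Adipoq are highest in NP200 1, next in CON 3 and at 5 counts or fewer elsewhere, while Cox7a1 has 151 to 236 counts in every library.

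The promoters of the common and the fat and muscle form are printed to show how they differ in letters. They are RefSeq windows of 250 bases before to 50 after the gene start on build GRCm38.p6, Cox8a at chr19:7217567-7217866 and Cox8b at chr7:140900397-140900696, both on the minus strand and written 5′ to 3′ along the gene. Capitals mark the core of ETS factors such as GABPA (NRF2), CCGGAAG, on either strand, which Cox8a holds at 2 places. In the Cox8b window none of the cores of NRF1, ETS factors and YY1 was found.
Cox8a: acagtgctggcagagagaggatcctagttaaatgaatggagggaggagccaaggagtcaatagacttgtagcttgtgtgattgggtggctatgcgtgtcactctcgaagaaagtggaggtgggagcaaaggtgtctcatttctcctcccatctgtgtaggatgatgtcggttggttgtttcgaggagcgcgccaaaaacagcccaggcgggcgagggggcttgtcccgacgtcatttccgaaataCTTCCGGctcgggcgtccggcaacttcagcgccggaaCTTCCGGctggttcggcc
Cox8b: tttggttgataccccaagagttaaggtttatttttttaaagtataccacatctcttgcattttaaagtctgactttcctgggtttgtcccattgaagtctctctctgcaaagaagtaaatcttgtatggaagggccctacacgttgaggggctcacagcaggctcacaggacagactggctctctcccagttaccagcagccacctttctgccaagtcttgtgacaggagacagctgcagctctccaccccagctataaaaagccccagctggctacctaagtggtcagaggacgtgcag

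In complex V the alpha and beta subunits of the catalytic head had values nearer 0 than most stalk and membrane subunits, a difference that was not tested. Atp5b, the catalytic beta subunit, had the highest level per length of all members, 2256.2 CPM per kb, and Atp5a1, the alpha subunit, followed in this complex at 976.4 CPM per kb. Atp5b had 2498, 2679.5 and 2656 CPM in NP200 kidneys and 2777, 2790.2 and 2608 CPM in CON kidneys. Atp5a1 had 1804, 1961 and 1957 CPM in NP200 kidneys and 2024, 1977 and 1918 CPM in CON kidneys. Only NP200 1 lay below every CON kidney in each, and their log2 fold changes, −0.062 and −0.049, turned positive with TPM. They stayed below the median of the nuclear protein-coding genes there, which was 0.049 or 0.054. The rotor shaft subunit Atp5c1 (gamma) had 385, 432 and 449 CPM in NP200 kidneys and 466, 466 and 428 CPM in CON kidneys, with a log2 fold change of −0.10. Atp5d (delta) had 124, 132 and 144 CPM in NP200 kidneys and 144, 133 and 139.9 CPM in CON kidneys, and its NP200 3 was the highest library. Atp5e (epsilon) had 128, 131 and 154 CPM in NP200 kidneys and 149, 152 and 129 CPM in CON kidneys, with NP200 3 again the highest. Their log2 fold changes were −0.062 and −0.059, and all overlapped between groups.

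The peripheral stalk holds the catalytic head still against the turning ring. Atp5f1, its subunit b, had 441, 462 and 474 CPM in NP200 kidneys and 513, 526 and 474 CPM in CON kidneys. NP200 and CON did not overlap, though NP200 3 at 473.54 CPM nearly met CON 3 at 473.89 CPM, and the log2 fold change was −0.14 (SE 0.068, adjusted p 0.712 in edgeR). Counts of Atp5f1 were not whole in all 6 libraries, so this narrow gap can depend on how shared reads were divided. Atp5j, coupling factor 6 of the stalk, had 113, 116 and 113 CPM in NP200 kidneys and 132, 134 and 113 CPM in CON kidneys. NP200 1 at 112.85 CPM and NP200 3 at 112.8 CPM lay just under CON 3 at 113.18 CPM, the lowest CON kidney, and NP200 2 lay above it, at a log2 fold change of −0.15 (SE 0.076). Atp5o, the oligomycin sensitivity protein at the top of the stalk, was at −0.15, and Atp5h, subunit d, at −0.085.

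In the membrane part, Atp5j2 (subunit f) had 168, 172 and 185 CPM in NP200 kidneys and 199.6, 202 and 181 CPM in CON kidneys, with NP200 1 and NP200 2 below all CON kidneys and a log2 fold change of −0.15 (SE 0.071). Atp5k and Atp5l, subunits e and g, at which ATP synthases pair up along the cristae, were at −0.12 and −0.11. Atp5mpl, a small proteolipid, had the lowest value of the complex, −0.15 (SE 0.083, adjusted p 0.734 in edgeR). Atp5s had 8.73, 10.9 and 9.36 CPM in NP200 kidneys and 9.98, 9.93 and 8.54 CPM in CON kidneys, an interval of −0.24 to 0.30, and the highest log2 fold change of all members, 0.030, which turned negative with TPM and without NP200 2 or CON 3.

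**Figure D4:**
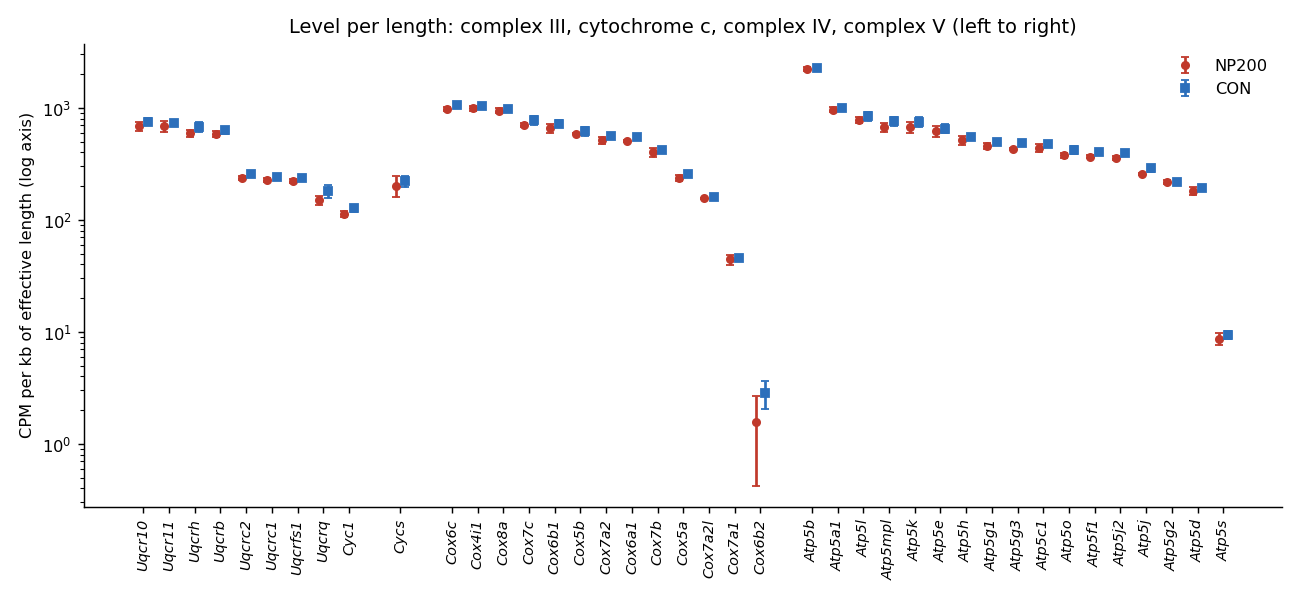
Level per length of each tested member, as mean CPM per kb of effective length (points, log axis) with SD over 3 kidneys (bars), NP200 left of CON. Atp5b stands highest at 2256.2 CPM per kb, the NP200 and CON points of nearly every gene lie side by side, and Cox7a1, Atp5s and Cox6b2 are below 100 CPM per kb.

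The c ring is built from 1 mature protein encoded by 3 genes, Atp5g1, Atp5g2 and Atp5g3, that differ in their cleaved import sequences. Reads in the shared end of the coding sequence can be told apart only at silent positions. The last 120 coding bases of each gene, GENCODE vM21, are printed with the 31 positions that are not the same in all 3 in capitals.
Atp5g1: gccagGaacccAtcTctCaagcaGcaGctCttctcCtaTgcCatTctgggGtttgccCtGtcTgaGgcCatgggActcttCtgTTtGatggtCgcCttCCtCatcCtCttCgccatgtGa
Atp5g2: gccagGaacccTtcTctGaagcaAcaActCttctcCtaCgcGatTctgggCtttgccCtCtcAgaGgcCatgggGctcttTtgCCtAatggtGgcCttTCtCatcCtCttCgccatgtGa
Atp5g3: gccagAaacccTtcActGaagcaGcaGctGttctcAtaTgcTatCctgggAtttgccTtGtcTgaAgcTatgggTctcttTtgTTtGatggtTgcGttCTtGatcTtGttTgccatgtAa
Over these bases Atp5g1 and Atp5g2 were 86.7% identical, Atp5g1 and Atp5g3 81.7%, and Atp5g2 and Atp5g3 76.7%. The longest stretch without a difference was 21 bases for the first pair, 11 for the second and 8 for the third. Expected counts of Atp5g1 and Atp5g2 were not whole in all 6 libraries, so some of their reads had been divided, and their levels carry that uncertainty.

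Atp5g3 (ENSMUSG00000018770) had 219, 231 and 224 CPM in NP200 kidneys and 259.8, 249 and 235 CPM in CON kidneys. Every NP200 kidney lay below every CON kidney, and the log2 fold change was −0.14 (SE 0.065, 95% interval −0.29 to −0.0017), with an unadjusted p of 0.0478 and an adjusted p of 0.689 in edgeR. Atp5g1 had 194, 213 and 214 CPM in NP200 kidneys and 223, 230.2 and 212 CPM in CON kidneys and a log2 fold change of −0.10 (SE 0.067). Atp5g2 had 111, 115 and 120.1 CPM in NP200 kidneys and 116, 118 and 109 CPM in CON kidneys and a log2 fold change of 0.013 (SE 0.064). The Atp5g1 groups overlapped at CON 3, and for Atp5g2 the NP200 kidneys lay among the CON kidneys or above them.

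Shares within the family do not depend on the scaling between libraries. Atp5g2 made up 21.25%, 20.55% and 21.53% of c subunit counts in NP200 kidneys, against 19.39%, 19.72% and 19.61% in CON kidneys. All NP200 kidneys lay above all CON kidneys (21.1% ± 0.51 in NP200 and 19.6% ± 0.17 in CON, SD, n = 3 each). Atp5g3 made up 41.69%, 41.32% and 40.14% in NP200 kidneys, against 43.33%, 41.72% and 42.25% in CON kidneys, and all NP200 kidneys lay below all CON kidneys. Its mean was 41.1% ± 0.81 in NP200 and 42.4% ± 0.82 in CON (SD, n = 3 each). Atp5g1 overlapped, with 37.8% ± 0.68 in NP200 and 38.0% ± 0.65 in CON (SD, n = 3 each). The exact two-sided permutation test gave p = 0.1 for Atp5g2 and for Atp5g3, the smallest p that 3 against 3 allows, and 0.6 for Atp5g1. After adjustment over the 4 shares tested the exact p-values were 0.2, 0.2 and 0.8. The difference was 1.54 percentage points for Atp5g2, between 1.33 and 1.82 with any 1 kidney left out, and −1.38 for Atp5g3, between −1.74 and −0.93.

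**Figure D5:**
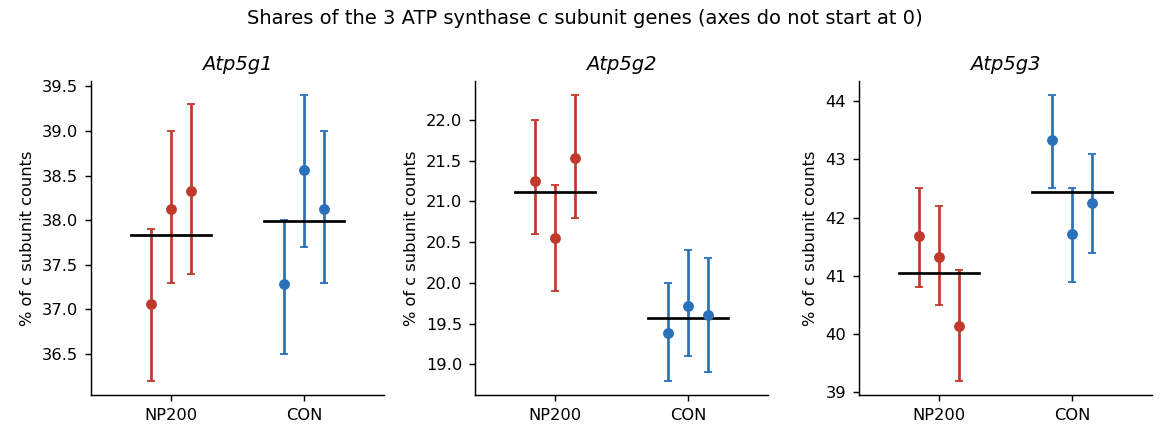
Share of each c subunit gene in the summed counts of the 3 genes, in percent, 1 point per kidney with its exact binomial 95% interval for counting error (bars) and the group mean (black line); axes do not start at 0. NP200 points of Atp5g2 lie above and of Atp5g3 below all CON points, while Atp5g1 overlaps.

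The assembly lists held genes other than the members, listed for assembly or control of these complexes, the complex V inhibitor Atpif1 among them. These lists held 0 genes past the adjusted threshold in edgeR. For complex III 5 of 7 tested factors were negative with a median of −0.096. Hccs, which attaches heme to cytochrome c and c1, had 13.6, 14.2 and 13.7 CPM in NP200 kidneys and 15.0, 17.9 and 14.8 CPM in CON kidneys, did not overlap between groups and was at −0.20. Uqcc1, a chaperone of cytochrome b synthesis, was at −0.096, and Uqcc3 was positive at 0.13. For complex IV 21 of 26 factors were negative with a median of −0.069. Cmc2, a small cysteine-motif protein of complex IV biogenesis, had counts of 187, 206 and 177 in NP200 kidneys and 299, 215 and 259 in CON kidneys, with every NP200 kidney below every CON kidney, scaled or not. The log2 fold change was −0.34 (SE 0.12), with an unadjusted p of 0.0212 and an adjusted p of 0.620 in edgeR. Coa3, which stabilises newly made COX1, was at −0.16. In the other direction Tmem177, a COX2 assembly factor, had 12.9, 12.6 and 13.1 CPM in NP200 kidneys and 11.8, 12.1 and 10.3 CPM in CON kidneys, with every NP200 kidney above every CON kidney and a log2 fold change of 0.18 (SE 0.097). Sco2, a copper chaperone, had the highest value of the list, 0.44 (SE 0.28), with overlapping groups. Without CON kidney 3 it was at 0.20. For complex V 5 of 7 listed genes were negative with a median of −0.083. Among them was Atpif1, not an assembly factor but the inhibitor that blocks reverse turning of the enzyme, at −0.12. Nipsnap2, on the same list, was at −0.11 without overlap. The subunits Ndufa4 of complex IV and Usmg5 of complex V, which the symbol rule does not reach, were at −0.13 and −0.097. Without NP200 kidney 1 the medians of the assembly lists were −0.062, −0.043 and −0.012 for complexes III, IV and V, and without CON kidney 3 they were −0.17, −0.085 and −0.032.

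The subunits of complexes III to V that the mitochondrial genome encodes ranged widely. Cytochrome b (mt-Cytb) was at −0.012, COX1 (mt-Co1) at −0.034, ATP6 (mt-Atp6) at −0.038 and ATP8 (mt-Atp8) at −0.065. COX2 (mt-Co2) was at −0.51 (SE 0.20, adjusted p 0.652 in edgeR) with overlapping groups. It had only 69.5, 66.0 and 82.3 CPM in NP200 kidneys and 137, 66.2 and 106 CPM in CON kidneys. ATP8 had 25.0, 25.3 and 12.5 CPM in NP200 kidneys and 23.0, 19.8 and 23.3 CPM in CON kidneys. COX1 had 24298 CPM or more in every kidney. The reason for these unequal levels was not tested. COX3 (mt-Co3) was at −0.51 (SE 0.12, adjusted p 0.424 in edgeR) with 706, 640.3 and 668 CPM in NP200 kidneys and 759, 1000.2 and 1114 CPM in CON kidneys, which did not overlap. The nuclear Nduf genes of complex I had a median of −0.086, with 36 of 38 negative, and all 4 complex II genes were negative with a median of −0.089. Without NP200 kidney 1 these medians were −0.039 and −0.052, and without CON kidney 3 they were −0.13 and −0.12. For COX3 the log2 fold change was −0.55 without NP200 kidney 1 and −0.39 without CON kidney 3. The difference between these lists and the members was not tested.

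Promoter windows were found for 34 of the 45 member symbols, 37 windows in all. The core of NRF1, a factor known for driving respiratory genes, was searched on both strands as GCGCA, any base, then GCGC, and lay in 8 windows, 21.6%, against 4.6% of all 32851 promoter windows. The ETS core CCGGAAG lay in 27.0% of member windows against 8.9% of all. The YY1 core AAGATGG lay in 10.8% against 6.3%, and the SP1 core GGGCGG in 35.1% against 35.7%. A match shows letters, not binding. Of the 2 members with an unadjusted p under 0.05, Atp5g3 had a window, chr2:73911277-73911576 on the minus strand of GRCm38.p6, printed 5′ to 3′ along the gene with its NRF1 core in capitals.
Atp5g3: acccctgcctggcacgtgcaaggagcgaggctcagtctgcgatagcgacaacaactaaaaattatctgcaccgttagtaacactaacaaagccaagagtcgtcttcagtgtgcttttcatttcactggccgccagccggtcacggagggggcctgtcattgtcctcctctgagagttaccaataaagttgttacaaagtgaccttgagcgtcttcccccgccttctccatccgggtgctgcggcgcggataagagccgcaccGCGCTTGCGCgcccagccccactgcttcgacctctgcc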

How the data were processed

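Kidney RNA of 6 mice, 3 per group, was sequenced on the Illumina NovaSeq X Plus platform, as the labels' protocols state. FastQC, Trim Galore 0.6.6, STAR 2.7.9a, RSEM 1.3.3 and the build GRCm39 are named in the submitters' processing notes. Strandedness and annotation release are not given in the sources used here. Overlapping or antisense genes therefore cannot be told apart. The authors deposited, per the file headers, expected counts per gene, not normalized, which RSEM divides among genes sharing reads. They were rounded here to whole numbers. TPM, a length-scaled share deposited by the authors, served in an alternative only, and effective lengths from the deposited tables gave levels per length. Deposited FPKM was not used.

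Symbols came from GENCODE vM21, which is on another build and was used for names and coding sequences: 51933 IDs were named by gene, 760 by transcript, and 4487 kept their ID. Promoters are RefSeq, build GRCm38.p6. The filter was filterByExpr and the scaling TMM. The quasi-likelihood test of edgeR 4.0.16 under R 4.3.3 had a group term alone, and its p-values were adjusted by Benjamini-Hochberg over 18092 genes (threshold 0.05). SE is the log2 fold change over the root of F. The edgeR step was also run on simulated counts with known changes, whose outcome is not given here. Alternatives used DESeq2 1.42.0 and limma 3.58.1. Permutation tests and binomial intervals (Clopper-Pearson) used scipy 1.17.1. Intervals on shares and limits on counts of 0 cover counting error only, and no molecular identifiers are named in the labels.

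Depth was 19408534 to 26292760 expected counts per library and the common biological coefficient of variation 0.105. Replicates correlated at 0.988 to 0.993 in log2 CPM within groups. The members, lists and named genes were chosen with earlier results of these data known. Named members were, per complex, the 4 with the lowest p and the 2 with the highest level per length, all listed isoform families, Cyc1, Cycs, Uqcrfs1, Uqcrc1, Uqcrc2, the alpha to epsilon subunits of complex V, and the 3 farthest from the median in each direction. Of the assembly lists the 2 genes with the lowest p per complex were named. Members outside this rule are given by their log2 fold change alone, and Uqcc3, Tmem177, Sco2, the mitochondrially encoded genes, Ndufa4, Usmg5 and the fat cell genes were added after their values were seen.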

Additional observations from a re-analysis of the deposited data

How the results depend on the processing

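With 17 alternatives, 0 had a member past the adjusted threshold, and the lowest adjusted p of the 33 named members tested in the analysis reported was 0.295 in any fit, limma and DESeq2 included. Cox8b, below the filter, reached 0.0543 in edgeR with no filter, at a log2 fold change of 3.20. The members' median stayed negative, between −0.14 and −0.051, in complex III between −0.14 and −0.051, in complex IV between −0.11 and −0.042 and in complex V between −0.14 and −0.050, and 33 to 40 members were negative. Library size alone moved the median of all genes to 0.051. The median of the nuclear protein-coding genes tested was 0.049 with log2(TPM + 1) and 0.054 with log2(TPM + 0.1). A change of sign in these settings thus includes a shift shared with other genes. Members with an unadjusted p under 0.05 numbered 2 in the analysis reported, 1 with library size alone, 3 with no filter (Cox8b the higher one among them), 5 with DESeq2, 1 with log2(TPM + 0.1), between 0 and 12 with 1 kidney left out, and 8 without CON 3 and NP200 1. Same-numbered NP200 and CON kidneys correlated at 0.054, −0.040 and 0.121 in their departures from the group mean. Kidneys of unlike number correlated between −0.137 and 0.085. With 3 libraries per group these values cannot show whether the mice were paired. With the replicate block 1 member had an unadjusted p under 0.05. Genes past the adjusted threshold in the whole table numbered 0, but 207 with no filter on low counts, 55 with DESeq2, between 0 and 5 with 1 kidney left out and 27 without CON 3 and NP200 1. The cause of these shifts was not tested. Shares of all genes at an unadjusted p under 0.05 were counted in the analysis reported only.

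Of 560 values of 33 named members under the alternatives, 533 kept their direction and 27 turned, in 8 members. With library size alone Cox7a2l was 0.015, Cox8a 0.015 and Cox7a1 0.014. With log2(TPM + 1) and log2(TPM + 0.1), in that order, Cox7a2l was 0.027 and 0.027, Atp5b 0.021 and 0.021, Atp5a1 0.0081 and 0.0081, Cox8a 0.015 and 0.015, Cox7a1 0.0015 and 0.0015, and Atp5s −0.050 and −0.053. Without NP200 1, Cox8a was 0.0050 and Cox5b −0.0008. Without NP200 2, Atp5s was −0.070. Without NP200 3, Atp5g2 was −0.017 and Cox7a1 0.030. Without CON 2, Cox5b was −0.025. Without CON 3, Cox5b was −0.010, Atp5g2 −0.020 and Atp5s −0.040. Cox5b was also −0.0001 with no filter, −0.0003 with DESeq2 and −0.016 without CON 3 and NP200 1. With 1 kidney left out the lowest and highest values were −0.025 and 0.056 for Cox5b, −0.075 and 0.0050 for Cox8a, −0.020 and 0.040 for Atp5g2, and −0.070 and 0.10 for Atp5s. The shares of Atp5g2 and Atp5g3 kept their direction in each leave-out and in TPM (1.43 and −1.41 percentage points), alternatives chosen after seeing the data. Also chosen then, the median of the cytosolic ribosomal proteins was 0.0020 without NP200 1, −0.054 without CON 3 and −0.061 without both. The median of the complex V assembly list was 0.020 without both. With 3 mice per group, differences under about 0.161 log2 units in a typical member could not be told from 0, and low counts left the scarce isoforms untested or wide.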

Other observations

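The cytosolic ribosomal proteins, 80 tested, had 34 negative values and a median of 0.0077, with scores of 0.008, −0.054 and 0.037 in NP200 kidneys and 0.056, 0.063 and −0.120 in CON kidneys. CON kidney 3 was the lowest library there, and without it 71 of 80 were negative with a median of −0.054. The mitochondrial ribosomal proteins, 78 tested, had 55 negative values, a median of −0.057 and scores of −0.114, −0.029 and 0.012 in NP200 kidneys and 0.021, 0.040 and −0.061 in CON kidneys, with NP200 kidney 1 the lowest library and CON kidney 3 the lowest of CON, as for the members. Without NP200 kidney 1 their median was −0.0046. The Nduf genes of complex I had scores of −0.158, −0.067 and −0.011 in NP200 kidneys and 0.057, 0.040 and −0.097 in CON kidneys, with the same lowest library in each group. Short and abundant transcripts leaned the same way as the members: 181 nuclear protein-coding genes under 600 bases had a median of −0.052, those from 2000 bases up a median of 0.0048, and the 1581 genes with at least 100 CPM a median of −0.042 with 1083 negative. Tested members had a median length of 648 bases, against 2476 for all tested nuclear protein-coding genes. These classes of length and abundance include the members themselves, 36 of which had at least 100 CPM. The part of length and abundance in the members' values was not tested.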
